A study of Mus musculus with 6 samples.

Results

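The endoplasmic reticulum (ER) folds the proteins a cell secretes or places in its membranes, and a set of 10 genes for its chaperones and for the transcription factor XBP1 was followed in hearts that lack filamin C. The genes are ER chaperone and unfolded protein response genes outside the ATF4 arm, named one by one: *Hspa5*, *Hsp90b1*, *Pdia4*, *Pdia6*, *Calr*, *Xbp1*, *Dnajb9*, *Herpud1*, *Sdf2l1* and *Creld2*. The choice is by name, and no measured value decides membership. The list was nevertheless drawn up with earlier results of these data known. All 10 passed the filter on low counts, among 16048 genes tested and 54356 genes with a transcript in the deposited files. The question was whether loss of filamin C, a crosslinker of actin in cardiac and skeletal muscle, was accompanied at E9.5 by a change of these genes.

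RNA was sequenced from hearts of C57BL/6 mouse embryos at E9.5, when the looped heart tube forms its chambers (whole heart in the labels, while the study's methods also allow for ventricles alone), with 3 FlncgKO libraries and 3 libraries of littermate controls. In FlncgKO embryos the floxed *Flnc* gene was deleted by Cre under *Sox2*, which acts in the epiblast, so the gene was lost from the whole embryo and not only from cardiomyocytes. The control littermates are labelled as control, and their exact *Flnc* and Cre genotype is not given in the sources used here, nor is the number of hearts in a library. Nothing in the labels says that the libraries of a group came from separate dissections, so p-values measure the spread between these libraries.

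When misfolded proteins accumulate in the ER, the sensors IRE1, PERK and ATF6 start the unfolded protein response. IRE1 cuts an intron out of *Xbp1* mRNA in the cytosol and so gives rise to the active transcription factor XBP1s. ATF6 is cut in the Golgi to release a transcription factor, and PERK lowers translation and raises ATF4. XBP1s and ATF6 act on promoters of chaperone genes through the ER stress response element (ERSE), whose CCAAT part is bound by NF-Y, and are known as the arm of the response that enlarges the folding capacity of the ER. In the heart this arm has been studied in cardiomyocytes.

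The promoter matches are shown here because the ERSE is what the chaperone genes among the 10 are known to share. All 10 genes had a RefSeq promoter (GRCm38.p6, 250 bases before to 50 after the start). The ERSE was searched on both strands as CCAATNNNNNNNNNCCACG, the related ERSE-II as ATTGG and CCACG with 1 base between them, and the core of the unfolded protein response element as TGACGTGG. The ERSE was found for 5 of the 10 genes, against 0.137% of all 27025 genes with a promoter in the table, and ERSE-II for 1 of the 10, against 0.0444%. Because chaperone genes among the 10 are known for this element, these shares describe the promoters and test nothing. Only exact letters were searched, so a variant of an element was not counted. The third motif was found for 0 of the 10, against 0.714% of all genes, which says only that these letters are not in these windows. Bases are counted from the transcription start. The ERSE lay at -65 to -47 for *Hspa5*, -212 to -194 and -107 to -89 for *Hsp90b1*, -98 to -80 for *Pdia6*, -162 to -144 for *Calr* and -126 to -108 for *Creld2*, and ERSE-II at -52 to -42 for *Herpud1*. Each thus lay upstream of the start given by RefSeq and, except for *Hspa5*, outside the gene as GENCODE bounds it, since the GENCODE gene of *Hspa5* begins further upstream, at 34771970. The windows hold each match in capitals with 10 bases on either side, on the strand of the gene, which is the reverse strand for *Hsp90b1* and *Calr* and the forward strand for the others. No 2 matches overlapped. The matches of *Calr* and *Creld2* and the second of *Hsp90b1* lie on the opposite strand and so begin with CGTGG.
Hspa5, chr2:34772015-34772053: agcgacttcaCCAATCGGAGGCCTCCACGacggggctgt
Hsp90b1, chr10:86705628-86705666: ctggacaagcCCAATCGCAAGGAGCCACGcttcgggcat
Hsp90b1, chr10:86705523-86705561: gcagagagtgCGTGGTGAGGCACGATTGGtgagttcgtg
Pdia6, chr12:17266481-17266519: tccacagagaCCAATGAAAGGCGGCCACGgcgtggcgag
Calr, chr8:84847065-84847103: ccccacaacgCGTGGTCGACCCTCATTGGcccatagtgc
Creld2, chr15:88819510-88819548: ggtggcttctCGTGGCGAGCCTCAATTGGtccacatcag
Herpud1 (ERSE-II), chr8:94386367-94386397: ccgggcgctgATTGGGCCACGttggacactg

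*Xbp1* lies on chromosome 11 of GRCm38 from 5520659 to 5525893 on the forward strand. The IRE1 intron is shown because it decides what the mRNA encodes. It was located in the main transcript as the segment between a pair of CNGCAG sites, each cut after its G, whose removal lengthens the reading frame. It has 26 bases, lies within exon 4 of 5 from 5524279 to 5524304, and its removal takes the reading frame to 371 codons, against 267 codons with the intron. The intron is in capitals, with 20 bases on either side.
Xbp1, chr11:5524259-5524324: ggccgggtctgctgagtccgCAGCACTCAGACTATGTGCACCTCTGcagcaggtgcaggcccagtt
Of the 4 *Xbp1* transcripts in the deposited files, 3 hold the intron, the fourth ends before it, and 0 have its ends joined. The cut form therefore has no value of its own here, and the *Xbp1* level is that of cut and uncut mRNA together.

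Libraries held 19208859 to 23123255 estimated counts. *Flnc* was at 127, 111 and 240.0 CPM in FlncgKO replicates 1, 2 and 3, and at 844, 623 and 746 CPM in control replicates 1, 2 and 3, which differed by -2.21 on the log2 scale (SE 0.35, adjusted p = 0.0656 in edgeR and 9.99e-07 in DESeq2). CPM are counts of a gene relative to the TMM-scaled total of its library, and adjusted p-values, unless DESeq2 is named, are Benjamini-Hochberg values over 16048 genes from the quasi-likelihood test of edgeR. Of the markers of heart muscle, 12 of 12 were detected, with a summed level of 35839 to 41619 CPM in FlncgKO and 39062 to 44341 CPM in control hearts. The 12 markers of megakaryocytes and platelets summed to 225 to 1157 CPM in FlncgKO hearts, lowest in replicate 3, and to 71.2 to 107 CPM in controls. The 10 tested markers of liver bud and yolk sac endoderm, cells that secrete much protein, summed to 11.6 to 56.7 CPM in FlncgKO and 16.2 to 145 CPM in control hearts. The 4 Y-linked genes *Ddx3y*, *Uty*, *Eif2s3y* and *Kdm5d* summed to 80.7, 3.88 and 4.28 CPM in FlncgKO replicates 1, 2 and 3 and to 117 to 140 CPM in controls, so that sex and genotype are partly confounded.

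Of the 10 genes, 0 were higher and 0 lower in FlncgKO hearts at an adjusted p under 0.05, where 1.31% of all genes tested were called (1.06% higher). DESeq2 also called 0 of the 10, where it called 8.44% of all genes (6.19% higher). At an unadjusted p under 0.05, 2 were higher (*Xbp1* and *Hsp90b1*) and 0 lower, against 13.3% of all genes that were higher at that limit. The log2 fold changes were positive for 8 genes and negative for 2, with a median of 0.05, beside 0.01 for all genes tested. The size of the change, whatever its sign, had a median of 0.05 for the 10 genes and 0.15 for all genes. For 6 of the 10 the log2 fold change was within 0.1 of 0, as for 35.6% of all genes. In bulk hearts, fewer cells of a type and less RNA per cell cannot be told apart.

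**Figure D1:**
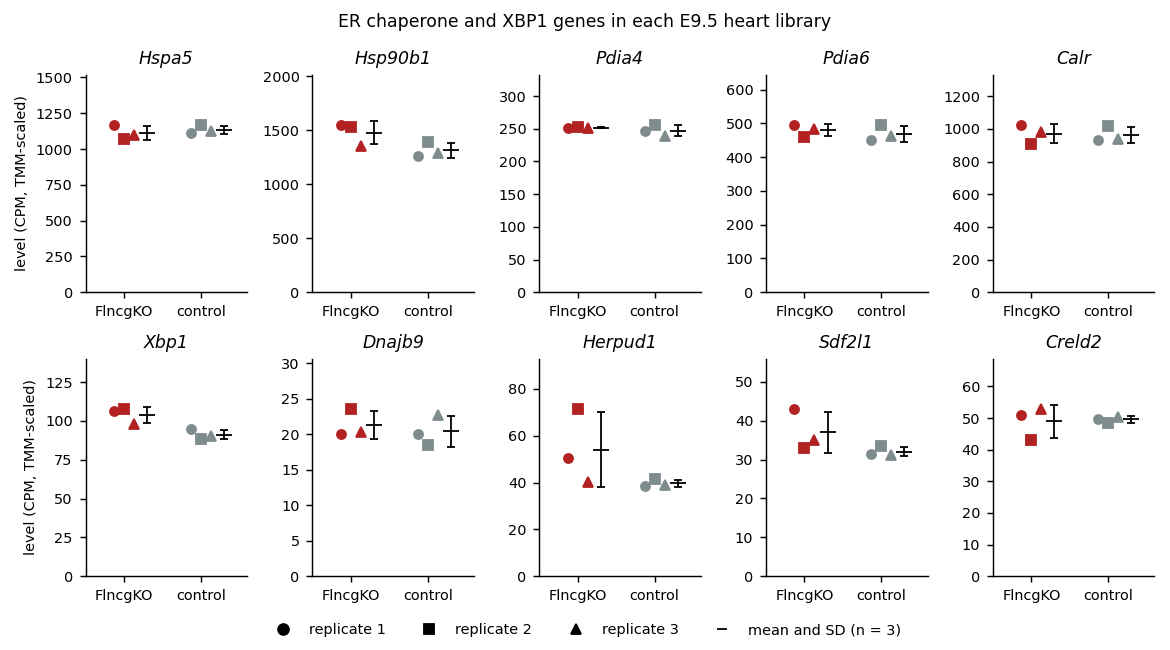
Level of each of the 10 genes in CPM (TMM-scaled, axes from 0), with FlncgKO libraries in red on the left of each panel and control libraries in grey on the right. Point shapes give the replicate number, and bars give the mean and SD of 3 libraries. *Xbp1* is the gene whose FlncgKO libraries (98.2 to 108 CPM) all lie above the controls (88.7 to 94.5 CPM), and *Herpud1* is high in FlncgKO replicate 2 at 71.5 CPM.

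The fold changes of the 3 most abundant chaperones in edgeR, FlncgKO over control, were 0.981 for *Hspa5*, 1.12 for *Hsp90b1* and 1.01 for *Calr*. *Hspa5* (chr2:34771970-34777547, forward strand in GRCm38, as for the other genes) encodes BiP, the Hsp70 of the ER, which binds unfolded chains and holds the stress sensors inactive. Its level was 1169, 1071 and 1099 CPM in FlncgKO replicates 1, 2 and 3, and 1110, 1166 and 1128 CPM in control replicates 1, 2 and 3. The lowest and the highest library were both FlncgKO libraries, and the groups overlapped. This was a log2 fold change of -0.03 (SE 0.05, adjusted p = 0.8004), and its 95% interval ran from 0.901-fold to 1.07-fold of control. A rise of *Hspa5* beyond 1.07-fold thus lies outside the interval of this fit, which takes no account of sex. With the level of the Y-linked genes as a covariate, edgeR gave a log2 fold change of 0.06 (SE 0.08, adjusted p = 0.897).

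*Hsp90b1* (chr10:86690209-86705509, reverse strand) encodes GRP94, the Hsp90 of the ER, which folds integrins and Toll-like receptors among its clients. It was at 1550, 1525 and 1357 CPM in FlncgKO replicates 1, 2 and 3, and at 1260, 1393 and 1291 CPM in control replicates 1, 2 and 3. Replicates 1 and 2 of FlncgKO were above all controls, while replicate 3 was below control replicate 2. The groups differed by 0.17 on the log2 scale (SE 0.07, adjusted p = 0.208), with a 95% interval from 1.01-fold to 1.26-fold. *Hsp90b1* carries 2 ERSE matches, the most among the 10 promoters. Its difference did not pass the threshold in edgeR under any setting run, while DESeq2 without FlncgKO replicate 3 called it (log2 fold change 0.22, adjusted p = 0.00413).

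*Calr* (chr8:84841850-84846934, reverse strand) encodes calreticulin, a lectin chaperone for glycoproteins and calcium store of the ER, whose loss in mice disturbs heart development. Its level was 1026, 908 and 982 CPM in FlncgKO replicates 1, 2 and 3, and 932, 1018 and 936 CPM in control replicates 1, 2 and 3. The FlncgKO libraries held both the lowest and the highest value, and the controls lay between them. They differed by 0.01 on the log2 scale (SE 0.06, adjusted p = 0.917, 95% interval 0.912-fold to 1.12-fold).

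The disulfide isomerases form and rearrange disulfide bonds in new chains. *Pdia4* (ERp72, chr6:47796141-47813430, reverse strand) had 250.8, 252 and 252 CPM in the FlncgKO libraries and 246, 256 and 239 CPM in the control libraries. FlncgKO libraries were closer together (SD 0.792 CPM) than controls (SD 8.41 CPM) and lay inside the control range. Its log2 fold change was 0.03 (SE 0.05, adjusted p = 0.784, 95% interval 0.946-fold to 1.096-fold). *Pdia6* (P5, chr12:17266545-17284770, forward strand), an isomerase that also acts on the IRE1 sensor, had 496, 460 and 482 CPM in the FlncgKO libraries and 449, 494 and 461 CPM in the control libraries. These groups overlapped as well, with a log2 fold change of 0.03 (SE 0.05, adjusted p = 0.759, 95% interval 0.937-fold to 1.12-fold).

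Among the BiP cofactors, *Dnajb9* (chr12:44205559-44210326, reverse strand) encodes ERdj4, a J-protein that delivers misfolded chains to BiP and is a target of XBP1s. It had 20.1, 23.6 and 20.3 CPM in the FlncgKO libraries and 20.03, 18.5 and 22.7 CPM in the control libraries. The order of the libraries did not follow genotype, with a log2 fold change of 0.06 (SE 0.11, adjusted p = 0.768, 95% interval 0.881-fold to 1.24-fold). *Sdf2l1* (chr16:17130138-17132383, reverse strand), whose product binds ERdj3 and keeps BiP clients soluble, had 43.1, 33.0 and 34.9 CPM in FlncgKO replicates 1, 2 and 3, and 31.4, 33.4 and 31.3 CPM in control replicates 1, 2 and 3. FlncgKO replicate 1 stood above the other 5 libraries. Its log2 fold change was 0.21 (SE 0.10, adjusted p = 0.288, 95% interval 0.977-fold to 1.37-fold). Without FlncgKO replicate 1, *Sdf2l1* was at 0.08 on the log2 scale in edgeR (adjusted p = 0.595) and 0.07 in DESeq2. *Creld2* (chr15:88819646-88826683, forward strand), an ER protein with disulfide isomerase activity induced by ER stress, had 51.1, 43.1 and 52.9 CPM in the FlncgKO libraries and 49.8, 48.4 and 50.5 CPM in the control libraries. Replicate 2 of FlncgKO was the lowest of all 6 libraries and replicate 3 the highest. The log2 fold change was -0.01 (SE 0.08, adjusted p = 0.936, 95% interval 0.868-fold to 1.13-fold).

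*Xbp1* was the only gene of the 10 whose libraries did not overlap between groups, against 29.7% of all genes tested without overlap and 15.7% with FlncgKO higher. Its level was 106, 108 and 98.2 CPM in FlncgKO replicates 1, 2 and 3, and 94.5, 88.7 and 90.4 CPM in control replicates 1, 2 and 3. The means were 104 ± 5.13 CPM in FlncgKO and 91.2 ± 3.00 CPM in control hearts (SD, n = 3 each). The log2 fold change was 0.19 (SE 0.06), with a 95% interval from 1.04-fold to 1.255-fold, and the difference did not pass the adjusted threshold (adjusted p = 0.121 in edgeR and 0.118 in DESeq2). Without FlncgKO replicate 3, the adjusted p was 0.0517 in edgeR and 0.0168 in DESeq2. The transcript Xbp1-201 held 90.5% to 93.1% of the gene's counts in the 6 libraries.

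*Herpud1* (chr8:94386438-94395377, forward strand), which encodes a membrane protein of the ER that assembles the degradation complex for misfolded proteins, had the largest fold change of the 10 and the widest spread among FlncgKO libraries, although *Sdf2l1* exceeded it without FlncgKO replicate 2 (0.28 for *Sdf2l1*, 0.19 for *Herpud1*) and with the Y-linked covariate (0.48 for *Sdf2l1*, 0.31 for *Herpud1*). It had 50.6, 71.5 and 40.3 CPM in FlncgKO replicates 1, 2 and 3, and 38.7, 41.6 and 39.03 CPM in control replicates 1, 2 and 3. Replicate 2 of FlncgKO was the highest library and replicate 3 lay inside the control range. The coefficient of variation was 29.4% in FlncgKO and 3.88% in control hearts. *Herpud1* had a log2 fold change of 0.45 (SE 0.21, adjusted p = 0.279, 95% interval 0.956-fold to 1.94-fold). It was 0.19 without FlncgKO replicate 2 (adjusted p = 0.428), and 0.62 without FlncgKO replicate 3 (adjusted p = 0.0526 in edgeR and 0.00168 in DESeq2). DESeq2 without FlncgKO replicate 3 called 3 of the 10 genes higher (*Herpud1*, *Hsp90b1* and *Xbp1*), where it called 8.26% of all genes higher.

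**Figure D2:**
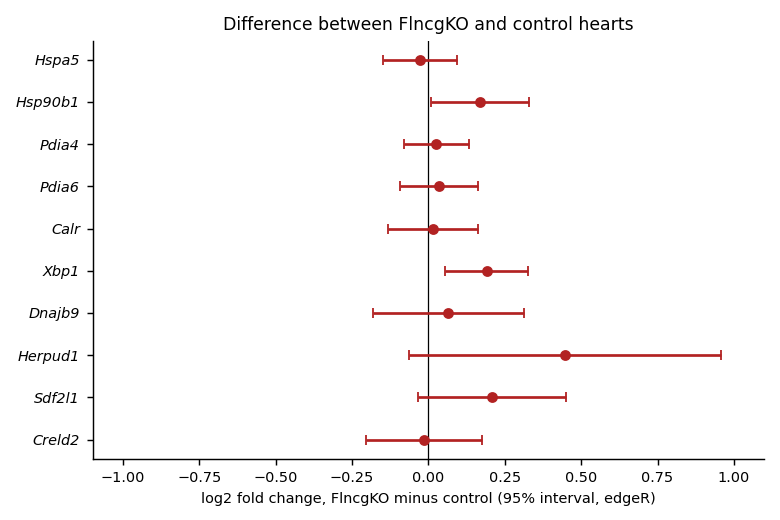
Log2 fold change of each gene, FlncgKO minus control, from edgeR's quasi-likelihood fit, with bars for the 95% interval. The intervals of 8 genes hold 0, those of *Hsp90b1* and *Xbp1* lie just above it, and that of *Herpud1* is the widest, from -0.07 to 0.96.

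Across libraries, the median log2 deviation of the 10 genes from their mean in controls was 0.09, 0.04 and 0.04 in FlncgKO replicates 1, 2 and 3, and -0.03, 0.06 and -0.02 in control replicates 1, 2 and 3. Control replicate 2 thus lay above FlncgKO replicates 2 and 3, and the groups overlapped. The genes did not vary as a block. Over the 6 libraries *Pdia6* and *Calr* had the highest correlation of log2 CPM among the 45 pairs (Pearson's r = 0.94), and *Herpud1* and *Creld2* the lowest (r = -0.81), as a description over points that share a library and its scaling. Outside the gene lists used here, 9594 genes with a mean of at least 10 CPM were compared with the mean standardized profile of the 10 genes. The 5 most alike over the 6 libraries were *Actr3b* (r = 0.97), *Emc7* (r = 0.97), *Cenpx* (r = 0.96), *Kyat1* (r = 0.96) and *Lyn* (r = 0.95), and 41 genes had an r over 0.9. These are the highest of 9594 correlations over only 6 points. Whether so many would arise between unrelated genes was not tested, and neither was a shared regulation.

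Levels of different genes were compared per length, as the authors' TPM summed over a gene's transcripts. *Hspa5* averaged 863 ± 48.9 TPM in FlncgKO and 862 ± 15.7 TPM in control hearts (SD, n = 3 each). *Hsp90b1* averaged 858 ± 68.0 TPM in FlncgKO and 747 ± 36.2 TPM in control hearts, and *Calr* 699 ± 38.1 TPM in FlncgKO and 686 ± 36.2 TPM in control hearts. These 3 chaperones were the most abundant of the 10, and over the 6 libraries the range of *Hsp90b1* overlapped that of *Hspa5* above it and of *Calr* below it. *Pdia6* followed at 364 to 397 TPM over the 6 libraries, *Pdia4* at 147 to 164 TPM and *Xbp1* at 88.9 to 109 TPM, none of which overlapped a neighbour in this order. *Sdf2l1* (60.1 to 82.4 TPM), *Creld2* (53.0 to 61.5 TPM) and *Herpud1* (39.1 to 72.1 TPM) overlapped in that order, and *Dnajb9* was lowest at 18.8 to 23.7 TPM. With protein-coding transcripts only, *Hspa5* averaged 656 TPM and *Hsp90b1* 764 TPM over the 6 libraries, which turned the order of these 2 genes round and changed no other rank.

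**Figure D3:**
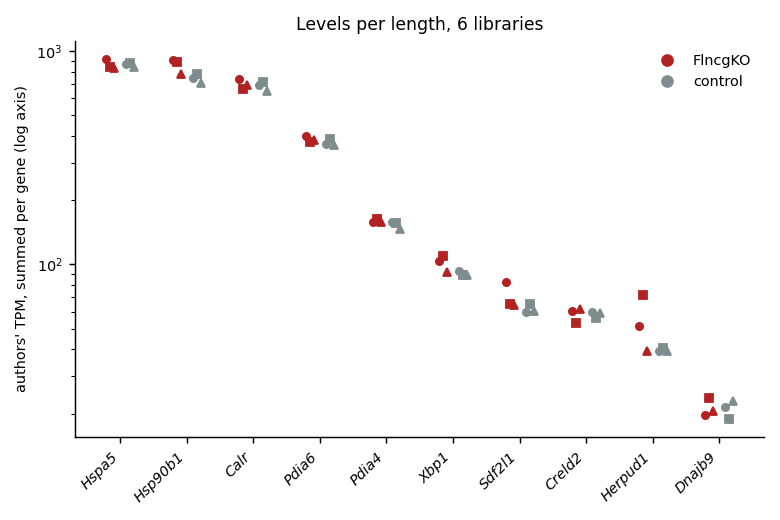
The authors' TPM summed per gene, on a log axis, for 3 FlncgKO libraries (red, left of each pair) and 3 control libraries (grey), with shapes for the replicate number as in the CPM panels. Genes run from *Hspa5* at 831 to 919 TPM down to *Dnajb9* at 18.8 to 23.7 TPM. *Herpud1* and *Sdf2l1* each have a high FlncgKO library. *Hsp90b1* averages 858 TPM in FlncgKO and 747 TPM in control hearts, and *Xbp1* 102 TPM in FlncgKO and 90.5 TPM in control hearts.

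In each library, most counts of a gene came from a single transcript. The main transcript held 85.6% to 88.1% of the counts of *Hspa5*, 97.9% to 98.3% of *Hsp90b1*, 93.6% to 96.0% of *Calr* and 81.4% to 92.4% of *Herpud1*, over the 6 libraries. Transcripts of *Calr* that encode no protein, which retain introns, held 5.28%, 4.003% and 4.60% of its counts in FlncgKO replicates 1, 2 and 3 and 5.92%, 6.42% and 4.42% in control replicates 1, 2 and 3. The groups overlapped. *Sdf2l1* and *Creld2* have 1 transcript each in the files.

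The promoter motif was also used to define genes without the list of 10. Of 49 genes with an ERSE or ERSE-II in the table, 46 were matched to the files and 31 were tested, 6 of them among the 10 genes and 25 not. Of the 31, 0 passed edgeR's threshold, where 1.31% of all genes did. At an unadjusted p under 0.05 there were 5, where 2136 of all 16048 genes tested were higher and 1419 lower. DESeq2 called 1 of the 31, where it called 8.44% of all genes. This was *Acacb*, an acetyl-CoA carboxylase, lower in FlncgKO by a log2 fold change of -0.35 (edgeR adjusted p = 0.0934). *Acacb* was picked out after its values were seen. The median log2 fold change was 0.02 for the 31 genes and 0.02 for the 25 outside the list.

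Other genes of the ER were counted from 5 further lists drawn up by the role of each gene. Of 124 tested genes, 2 rose in FlncgKO hearts and 0 fell past edgeR's threshold (unadjusted, 24 were higher and 0 lower at p under 0.05). With DESeq2, 9 were higher and 0 lower. The higher genes were 1.61% of the 124 in edgeR, beside 1.06% of all genes, 7.26% in DESeq2, beside 6.19%, and 19.4% unadjusted, beside 13.3%. The lower genes were 0 of the 124 in each case. Of all genes, 0.249% were lower in edgeR, 360 of 15953 in DESeq2 and 1419 of 16048 unadjusted. The median log2 fold change was 0.06 for 32 other chaperones and folding enzymes, 0.14 for 14 sensors and processing enzymes of the response, 0.03 for 24 genes of ER-associated degradation, 0.05 for 29 genes of the translocon and N-glycosylation, and 0.06 for 25 genes of traffic between ER and Golgi. Of the 3 sensor genes, named for their role after their values were seen, *Ern1* (IRE1) had a log2 fold change of 0.19, *Atf6* 0.16 and *Eif2ak3* (PERK) 0.09, and the 95% interval of each held 0.

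*P4hb*, which encodes protein disulfide isomerase and the β subunit of collagen prolyl 4-hydroxylase, rose in FlncgKO hearts. It had 764, 806 and 804 CPM in the FlncgKO libraries and 591, 594 and 621 CPM in the control libraries, which did not overlap. The log2 fold change was 0.39 (SE 0.05, adjusted p = 0.0310 in edgeR). *P4hb* lost the call without control replicate 1 (adjusted p = 0.197) or 2 (0.191) and without FlncgKO replicate 1 (0.0551) or 2 (0.0647), while its log2 fold change stayed between 0.38 and 0.42. Few genes of any kind passed in these fits: edgeR called 1, 1, 24 and 37 of all genes higher, in the same order. With the summed level of the Y-linked genes as a covariate it was 0.33 (SE 0.07, adjusted p = 0.266). DESeq2 called *P4hb* with all libraries (adjusted p = 6.43e-11) and without each in turn (at most 2.84e-07).

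*Edem1*, which speeds the exit of misfolded glycoproteins to degradation and is a known target of XBP1s, rose as well. It had 83.8, 74.6 and 66.1 CPM in the FlncgKO libraries and 45.5, 44.7 and 52.1 CPM in the control libraries, with all 3 FlncgKO libraries above the controls. Its log2 fold change was 0.66 (SE 0.10, adjusted p = 0.0377 in edgeR). The adjusted p of *Edem1* was 0.216, 0.199 and 0.05001 without control replicate 1, 2 or 3, and 0.0688 and 0.118 without FlncgKO replicate 1 or 2, at log2 fold changes of 0.63, 0.61, 0.73, 0.56 and 0.66 in the same order. Of all genes, edgeR called 1, 1, 95, 24 and 37 higher in these fits. With offsets for transcript length the fold change of *Edem1* was 0.60 (adjusted p = 0.112), and with the Y-linked covariate 0.85 (adjusted p = 0.148). DESeq2 called it with all libraries (adjusted p = 3.77e-06) and without each in turn (at most 0.00184). *Ero1l*, the oxidase that recharges the disulfide isomerases, was singled out after its values were seen: it had 248, 368 and 179 CPM in the FlncgKO libraries and 112, 113 and 121 CPM in the control libraries (1.20 on the log2 scale, adjusted p = 0.0960 in edgeR and 0.00231 in DESeq2). DESeq2 also called *Kdelr3* (edgeR log2 fold change 1.06, DESeq2 adjusted p = 0.000452), *Creb3l1* (0.61, 0.00542) and *Creb3l2* (0.42, 0.0309) of the 5 lists higher. The remaining genes it called higher were *Creld1* (0.34, 0.0275), *Stt3a* (0.24, 0.00366) and *Kdelr2* (0.23, 0.00910). None of these passed edgeR's threshold.

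**Figure D4:**
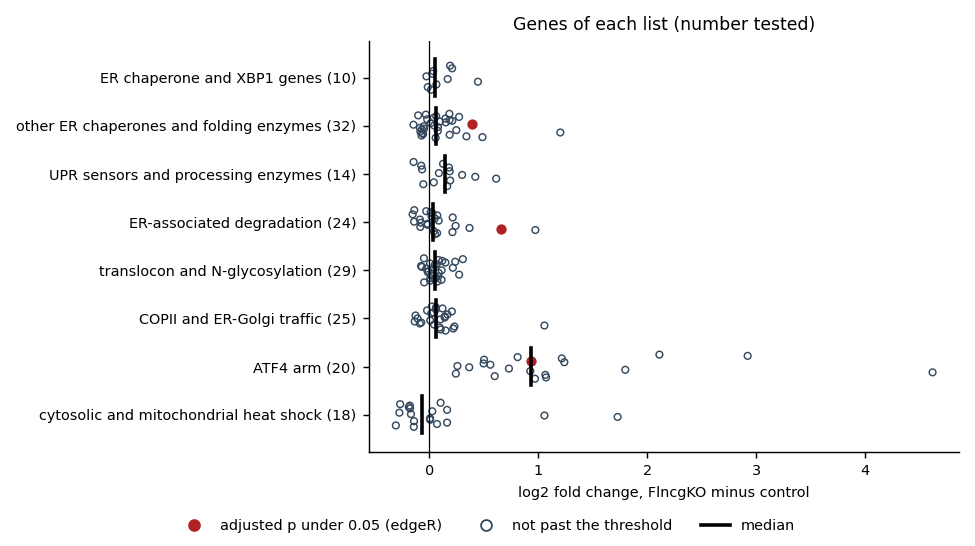
Log2 fold change, FlncgKO minus control, of every tested gene of each list, with red points past edgeR's adjusted threshold, open points not past it, and a black line at the median. The median is 0.05 for the ER chaperone and XBP1 genes and 0.93 for the ATF4 arm, where all 20 genes lie to the right of 0.

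The ATF4 arm, the part of the response that PERK shares with amino acid and heme shortage, stood at other values in the same libraries. Its 20 tested genes were all on the positive side, and their median log2 fold change was 0.93. Past the threshold 1 rose, *Shmt2*, a mitochondrial enzyme of serine metabolism (log2 fold change 0.93, SE 0.13, adjusted p = 0.0393), and DESeq2 called 15, where it called 6.19% of all genes higher. Without control replicate 1, 2 or 3 the adjusted p of *Shmt2* was 0.216, 0.201 and 0.0664, and without FlncgKO replicate 1 it was 0.0734, at log2 fold changes of 0.91, 0.89, 1.00 and 0.99 in the same order. Of all genes, edgeR called 1, 1, 95 and 24 higher in these fits. The fold change of *Shmt2* was 1.00 with length offsets (adjusted p = 0.0572), 0.92 with the replicate block (0.0518) and 0.77 with the Y-linked covariate (0.368). DESeq2 called *Shmt2* with all libraries (adjusted p = 2.18e-10) and without each in turn (at most 1.37e-05). Measured in the same way, the list's median log2 deviation was 0.71, 1.18 and 0.66 in FlncgKO replicates 1, 2 and 3, and -0.04, -0.07 and 0.12 in control replicates 1, 2 and 3. FlncgKO replicate 2, highest for these genes, was also the library with the highest *Herpud1*, a gene that ATF4 is known to act on. In FlncgKO replicate 3 the list stood at 0.66, while *Herpud1* lay inside the control range. A link between them was not tested. Cytosolic and mitochondrial heat shock genes had a median of -0.07, with 0 of 18 past edgeR's threshold. Unadjusted, 1 was higher and 5 lower at p under 0.05, where 2136 of all 16048 genes were higher and 1419 lower. DESeq2 called 1 higher and 2 lower, where it called 987 of 15953 genes higher and 360 lower. No test of the difference between the lists was made.

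**Figure D5:**
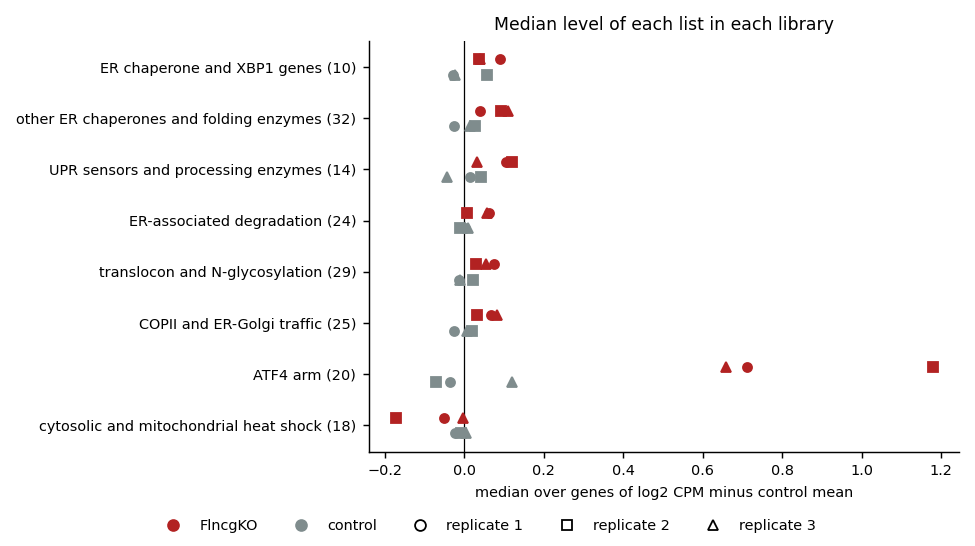
Median log2 deviation from the mean of the controls over the genes of a list, 1 point per library, with FlncgKO libraries in red above control libraries in grey and shapes for the replicate number. The ER chaperone and XBP1 genes lie between -0.03 and 0.09 in all 6 libraries, while the ATF4 arm lies at 0.66 to 1.18 in FlncgKO hearts.

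Values of other cell types and of sex moved with genotype beside these results. The platelet markers were higher in each FlncgKO library (12 of 12 genes without overlap), with the lowest sum in FlncgKO replicate 3. In that library *Hsp90b1*, *Xbp1* and *Herpud1* were also lowest among FlncgKO libraries. The orders differed otherwise. The platelet list's median log2 deviation was 5.79, 5.08 and 3.06 in FlncgKO replicates 1, 2 and 3, while *Xbp1* and *Herpud1* were highest in replicate 2. FlncgKO replicate 3 also had the highest median deviations of the erythroid (1.37) and surface ectoderm (2.27) markers. The part of these cell types in the values of the 10 genes was not tested. With the level of the Y-linked genes as a covariate, edgeR gave log2 fold changes of 0.25 for *Hsp90b1* (adjusted p = 0.618), 0.22 for *Xbp1* (0.647), 0.31 for *Herpud1* (0.891) and 0.48 for *Sdf2l1* (0.220), and 0 of the 10 genes passed. In that fit 0 genes passed of all genes tested (unadjusted, 906 were higher and 391 lower at p under 0.05).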

How the data were processed

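Polyadenylated RNA of 3 FlncgKO and 3 control heart samples was sequenced with a stranded kit. The authors quantified reads with salmon (version not given in the sources used here) on GENCODE M22 transcripts (GRCm38.p6) and deposited TPM and estimated counts, 140658 transcripts in each library. Their DESeq2 version was 1.22.2, per the labels. Here transcripts were joined to genes through GENCODE M21, which left out 0.370% of transcripts with 0.108% to 0.131% of counts. Counts were summed and rounded, and tested with edgeR 4.0.16 in R 4.3.3 (robust quasi-likelihood, TMM, filterByExpr with a minimum of 10 counts, threshold 0.05), unpaired. The 95% intervals use the fit's standard error and degrees of freedom. DESeq2 1.42.0 was an alternative, beside other scalings and filters, length offsets, a replicate block, a Y-linked covariate and leaving out each library. DESeq2 without each library was added after seeing the data. Steps were tested on simulated data.

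The 10 genes, the gene lists and the naming rule were chosen with earlier results of these data known. Genes named are the 10, members of the other ER, ATF4 and heat shock lists past edgeR's threshold, the 5 genes most correlated with the 10, *Flnc* and the Y-linked genes, with exceptions stated. Macrophage, erythroid, endothelial, mesenchymal, epicardial and ectodermal marker lists were also measured, with median log2 fold changes of -0.14, 0.87, 0.25, 0.25, -0.17 and 1.05. The macrophage median rests on the 4 of 12 genes that passed the filter on low counts, and the ectodermal median on 7 of 10. Of the marker lists, edgeR called 2 of 12 endothelial, 1 of 11 erythroid and 1 of 12 platelet genes higher, and the rule names none of these.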

Additional observations from a re-analysis of the deposited data

How the results depend on the processing

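Of the 10 genes, 0 were called higher or lower under each planned setting, and 3 higher with DESeq2 without FlncgKO replicate 3, a setting chosen after seeing the data, so that leaving out a library gave 0 to 3. Over all genes tested, 170 were higher and 40 lower. These counts were 392 and 162 without a filter on low counts, 987 and 360 with DESeq2, 63 and 13 with length offsets, 512 and 120 with the replicate block, 0 and 0 with the Y-linked covariate, and 62 lower with 10 counts in every library. Leaving out 1 library gave 1 to 1293 higher and 0 to 512 lower over both tools.

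Directions of genes near 0 turned. With the Y-linked covariate the log2 fold change was 0.063 for *Hspa5*, 0.061 for *Creld2* and -0.050 for *Dnajb9*. With total counts only it was -0.0026 for *Pdia4* and -0.013 for *Calr*. Leaving out 1 library gave -0.0049 to 0.050 for *Pdia4*, -0.0026 to 0.072 for *Pdia6*, -0.038 to 0.060 for *Calr*, -0.022 to 0.15 for *Dnajb9* and -0.078 to 0.068 for *Creld2*. *Sdf2l1* kept its direction at 0.07 to 0.28, lowest without FlncgKO replicate 1. None of these was called, and the cause was not tested.

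Numbers called higher were, for the other chaperones, 2 without the filter, 3 with DESeq2, 0 with the Y-linked covariate and 0 to 4 without 1 library. For the sensors they were 1 without the filter, 2 with DESeq2, 1 with the replicate block and 0 to 2 without 1 library. For ER-associated degradation they were 0 with length offsets, 0 with the covariate and 0 to 1 without 1 library. For translocon genes they were 1 with DESeq2 and 0 to 2 without 1 library, and for traffic genes 2 with DESeq2, 1 with the replicate block and 0 to 3 without 1 library. For the ATF4 arm they were 2 without the filter, 15 with DESeq2, 0 with length offsets, 4 with the replicate block, 0 with the covariate and 0 to 15 without 1 library. For heat shock genes 1 was higher and 2 lower with DESeq2, and 0 to 2 higher and 0 to 5 lower without 1 library.

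With protein-coding transcripts only, mean TPM over the 6 libraries was 656 for *Hspa5*, 349 for *Pdia6*, 604 for *Calr* and 85.6 for *Xbp1*, beside 862, 380, 692 and 96.1 with all transcripts. The share of Xbp1-201 in TPM was 81.7% in FlncgKO and 81.0% in control hearts.

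Equal replicate numbers are not said to mark a litter. Same-numbered libraries had correlations of 0.03, 0.57 and 0.59 between their deviations from the group means (replicates 1, 2 and 3). Differently numbered libraries of the 2 groups had correlations from -0.61 to 0.13. What the numbers mark was not tested. The replicate block changed no call among the 10 genes. At this depth, 383 to 34660 counts per gene and library stood behind the values.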
